A study of Mus musculus with 6 samples.

Results

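The Schlafen genes described here are Slfn1, Slfn2, Slfn4, Slfn5 and Slfn8, 5 of the 32285 genes counted in a droplet single-cell RNA survey of leukocytes from the mouse heart. They were chosen by symbol from the gene list of the count matrices, and all 5 were present. Schlafen proteins were first known as regulators of growth and quiescence in developing lymphocytes, and many of their genes are induced by type I interferon. The family is divided by protein size. Slfn1 and Slfn2 encode short proteins built around the core Schlafen domain, Slfn4 an intermediate one, and Slfn5 and Slfn8 long proteins that carry a further helicase-like part. Slfn2 is known for keeping T cells and monocytes quiescent, and Slfn4 for marking interferon-activated myeloid cells.

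Hearts of C57Bl6J mice had been given a sham procedure or a single fraction of 12 Gy with a small-animal irradiator, and CD45+ cells, that is leukocytes by their shared surface marker, were collected at 28 days. The 6 libraries form 3 groups of 2. The sham group and the first irradiated group carry the genotype label WT, and the second irradiated group is titled Tmem and carries the genotype label STING KO. STING is the adaptor that turns cytosolic DNA sensing into interferon induction. The allele, the age of the mice and the number of mice behind each library are not given in the labels, no sham-treated knockout was analysed here, and the labels do not state separate animals for the 2 libraries within a group. The p-values below therefore reflect library-to-library spread, part or all of which may be technical.

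The filtered data held 31279 cells of 45904 barcodes, 3394 to 6014 in each library, at median depths of 4400 to 6801.5 unique molecular identifiers (UMIs, 1 for each captured transcript) per cell. Clusters were named from marker genes, and a name ends in "-like" for that reason. The largest class was macrophage-like (10040 cells), with 3771 cells in the neutrophil-like, 3473 in the B cell-like and 1944 in the monocyte-like class. Despite the CD45 sort, 1962 endothelial-like and 481 fibroblast-like cells remained. Between 6 and 38 cell barcodes were shared by each pair of libraries. The transcript of STING itself, Tmem173, was measured in macrophage-like cells as CPM, the UMIs of a gene per 1000000 UMIs of that class in that library. It stood at 51.3 and 46.0 CPM in sham, 59.6 and 56.2 in irradiated wild type and 51.9 and 52.3 in the libraries labelled STING knockout. It did not separate the genotypes. The genotype directions below therefore rest on the label. Since the allele is not given, whether a 3' count of this gene could check the label is not known.

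All 5 members lie in 1 cluster on chromosome 11 of GRCm38, within 238.9 kb from 82951349 to 83190216 in the GENCODE vM21 annotation. Slfn5 (ENSMUSG00000054404) spans 82951349 to 82964840 on the plus strand, and Slfn8 (ENSMUSG00000035208) 83002158 to 83020810 on the minus strand. Slfn2 (ENSMUSG00000072620) spans 83065112 to 83070678, Slfn1 (ENSMUSG00000078763) 83116849 to 83122670 and Slfn4 (ENSMUSG00000000204) 83175186 to 83190216, all on the plus strand. The antisense gene Slfn5os overlaps Slfn5, and Gm20234 overlaps Slfn2 on the other strand. The sources used here do not say whether counting used strand, so reads of these pairs may not be told apart. Of the 91-base windows within 400 bases of a transcript's 3' end, where these libraries are read, 28 of 933 in Slfn8 also occur in Slfn9, whereas the other members shared 0 windows with another gene of the family.

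The promoters are shown because interferon-stimulated genes moved in the same direction as the members in the results below. Each sequence is RefSeq's, build GRCm38.p6, 250 bases before to 50 bases after a gene start, written 5′ to 3′ along the gene. In Slfn5 the RefSeq start used lies downstream of the GENCODE start, so its window falls within the gene span given above. In the long members the capitals mark the core of the interferon-stimulated response element, GAAA followed by any 2 bases and GAAA, read on either strand. In the short and intermediate members they mark ACTTCCTGGAG, the longest run that these 3 promoters share. It was chosen by comparing them, so that they share it is no finding.
Slfn5 (chr11:82951852-82952151, plus strand): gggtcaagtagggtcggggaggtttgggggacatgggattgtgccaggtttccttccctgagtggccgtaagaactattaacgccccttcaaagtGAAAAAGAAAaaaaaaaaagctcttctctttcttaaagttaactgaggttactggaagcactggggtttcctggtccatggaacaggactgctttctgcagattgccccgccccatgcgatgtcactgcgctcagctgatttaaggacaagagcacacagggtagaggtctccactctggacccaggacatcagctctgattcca
Slfn8 (chr11:83020761-83021060, minus strand): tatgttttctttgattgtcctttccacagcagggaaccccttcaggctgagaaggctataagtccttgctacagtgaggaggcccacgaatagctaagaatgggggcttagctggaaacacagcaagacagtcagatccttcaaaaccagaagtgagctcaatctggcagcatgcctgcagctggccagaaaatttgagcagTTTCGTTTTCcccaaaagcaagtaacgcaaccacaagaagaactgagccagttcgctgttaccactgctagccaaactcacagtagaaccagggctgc
Slfn1 (chr11:83116570-83116869, plus strand): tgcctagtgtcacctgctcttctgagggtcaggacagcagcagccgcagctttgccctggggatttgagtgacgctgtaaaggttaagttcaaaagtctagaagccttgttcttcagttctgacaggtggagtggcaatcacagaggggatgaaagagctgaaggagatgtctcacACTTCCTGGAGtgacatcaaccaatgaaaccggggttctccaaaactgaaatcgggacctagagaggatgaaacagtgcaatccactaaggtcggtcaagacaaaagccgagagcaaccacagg
Slfn2 (chr11:83064862-83065161, plus strand): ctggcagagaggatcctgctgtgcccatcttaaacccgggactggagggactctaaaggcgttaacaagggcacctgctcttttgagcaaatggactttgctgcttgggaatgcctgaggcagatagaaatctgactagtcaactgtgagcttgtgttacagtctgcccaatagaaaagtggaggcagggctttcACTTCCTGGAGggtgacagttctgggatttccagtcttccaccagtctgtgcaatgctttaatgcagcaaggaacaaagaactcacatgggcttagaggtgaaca
Slfn4 (chr11:83174936-83175235, plus strand): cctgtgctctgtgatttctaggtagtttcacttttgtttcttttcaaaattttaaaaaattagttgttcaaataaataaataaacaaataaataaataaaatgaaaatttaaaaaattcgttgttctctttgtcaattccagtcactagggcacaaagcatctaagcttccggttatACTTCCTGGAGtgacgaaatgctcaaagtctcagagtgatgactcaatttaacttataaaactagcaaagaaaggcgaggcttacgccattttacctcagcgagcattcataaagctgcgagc
The element core begins at -155 from the start in Slfn5 and, as its reverse complement TTTCGTTTTC, at -48 in Slfn8. The core was found in 2 of the 5 members and was absent from the windows of Slfn1, Slfn2 and Slfn4. It occurred in 3.44% of all 32851 promoters of this length in the same table. Counted by gene, it occurred in 3.99% of 27025 genes and in 16 of 30 interferon-stimulated genes that had a promoter there. ACTTCCTGGAG lies at -74 in Slfn1, -55 in Slfn2 and -73 in Slfn4. It occurred in 0.0731% of all promoters, in 0.0888% of genes and in 0 of the 30 interferon-stimulated genes. A gamma-activated site, TTC followed by any 3 bases and GAA, was found in 0 of the 5 members, in 9.55% of genes and in 8.30% of all promoters. Both strands were searched, and a match describes letters within the window, not a site in use.

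Where each member was expressed was described first, over 9 classes, without a test. The classes ordered differently for each gene. Slfn1 and Slfn4 were highest in neutrophil-like cells, Slfn2 in monocyte-like cells, Slfn5 in endothelial-like cells, and Slfn8 was spread over most leukocyte classes.

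Among the short members, Slfn1, the founding gene of the family, stood in the sham libraries at 169 and 218 CPM in neutrophil-like cells, 52.0 and 57.6 in monocyte-like cells and 38.3 and 44.2 in T cell-like cells. These 3 classes did not overlap with each other. Dendritic cell-like cells (7.51 and 15.2 CPM) overlapped with macrophage-like cells (7.79 and 8.50), and every other class was at or below 2.71 CPM in every sham library. After irradiation of wild-type hearts the macrophage-like class, at 43.4 and 49.9 CPM, came within the range of T cell-like cells (37.3 and 64.1). Slfn2 was counted in every class. In sham it was at 404 and 416 CPM in monocyte-like cells, 276 and 357 in neutrophil-like cells and 187 and 253 in macrophage-like cells, with no overlap between these 3 neighbours. Macrophage-like, T cell-like (176 and 209) and dendritic cell-like cells (149 and 209) overlapped. It was lowest in fibroblast-like cells, at 6.21 and 15.9 CPM.

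Slfn4, the intermediate member, showed the steepest order. In sham libraries it stood at 208 and 215 CPM in neutrophil-like cells and 13.2 and 20.1 in monocyte-like cells. Every remaining class was at or below 2.71 CPM, and each overlapped with its neighbour in the order. In irradiated wild-type libraries macrophage-like cells, at 9.15 and 15.1 CPM, stood apart from the next class, T cell-like cells, at 3.39 and 5.34.

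Of the long members, Slfn5 was highest in endothelial-like cells, at 794 and 773 CPM in sham, 606 and 669 in irradiated wild type and 664 and 740 in the libraries labelled knockout. No other class exceeded 235 CPM in any library. A cluster led by Rgs5 and Notch3, in no class because it also carried endothelial markers, held 566 CPM over the 6 libraries. In sham the next classes were monocyte-like (129 and 155), fibroblast-like (121 and 137) and macrophage-like cells (107 in both), and NK cell-like cells were lowest at 2.06 and 6.05. Slfn8 was highest in macrophage-like cells in sham (34.3 and 40.3 CPM) and in irradiated wild type (59.6 and 59.9), in both cases without overlap with monocyte-like cells, the next class. Fibroblast-like cells of irradiated wild type held 75.0 and 7.51 CPM, the first from 35 cells. In the libraries labelled knockout T cell-like cells were first at 43.4 and 49.9 CPM and overlapped with macrophage-like cells at 39.8 and 49.1. Monocyte-like, NK cell-like and B cell-like cells overlapped in sham between 26.2 and 34.0 CPM.

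**Figure D1:**
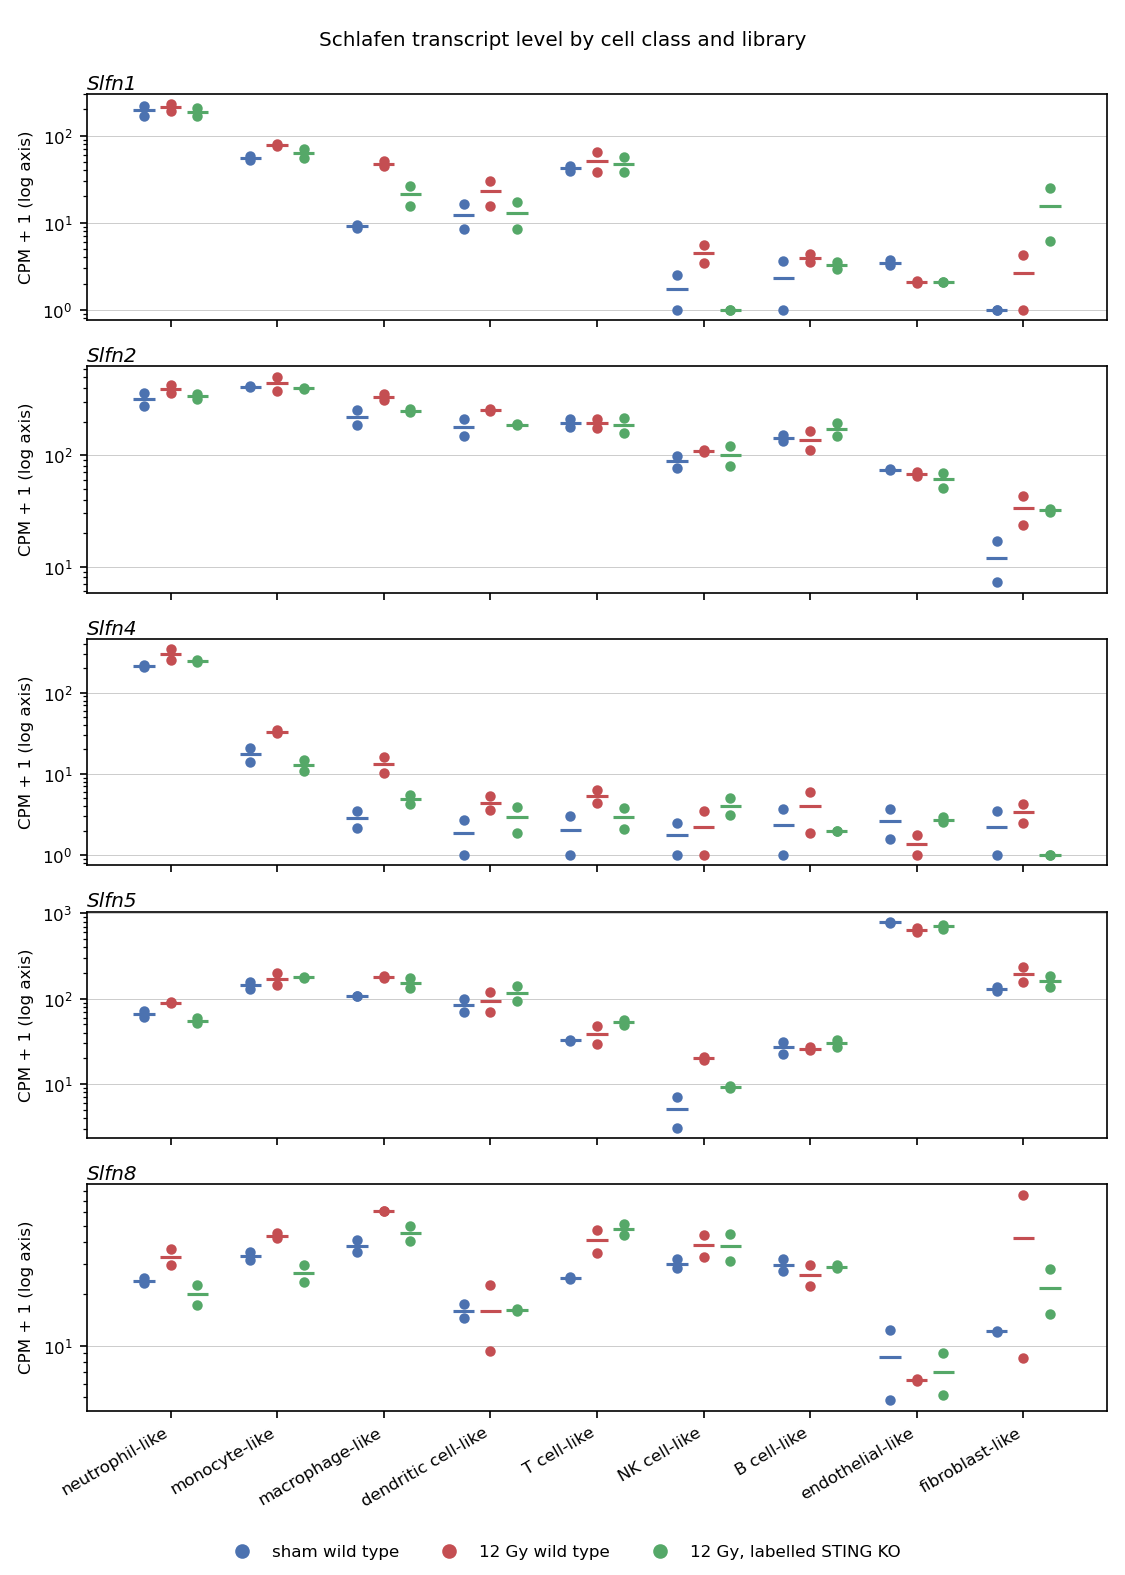
Level of each Schlafen member, as CPM + 1 on a log axis, in 9 marker-named cell classes; each point is 1 library, short lines are means of 2 libraries, and colours give the group. Slfn1 and Slfn4 are highest in neutrophil-like cells, Slfn5 in endothelial-like cells, and the macrophage-like points of Slfn1 and Slfn4 stand apart between sham and irradiated wild type.

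The sources of the UMIs differed accordingly. Neutrophil-like cells made up 5.60% to 17.7% of the kept cells of a library and gave 25.0% to 56.3% of its Slfn4 UMIs. Endothelial-like cells made up 4.99% to 10.9% of the cells and gave 25.8% to 48.2% of the Slfn5 UMIs. Macrophage-like cells gave 4.94% and 14.7% of the Slfn1 UMIs in sham, 33.6% and 38.9% in irradiated wild type and 18.3% and 24.8% in the libraries labelled knockout. Clusters that carried markers of 2 lineages or met no class held 22.1% (Slfn5) to 39.5% (Slfn4) of a member's UMIs over the 6 libraries, and these are in no class. Among them a cluster of 792 cells, led by Cxcr2, Cstdc4 and Mmp8 and with B cell markers besides, held 1000 Slfn4 and 928 Slfn1 UMIs. The neutrophil-like shares, and the tests in that class below, do not include it.

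**Figure D2:**
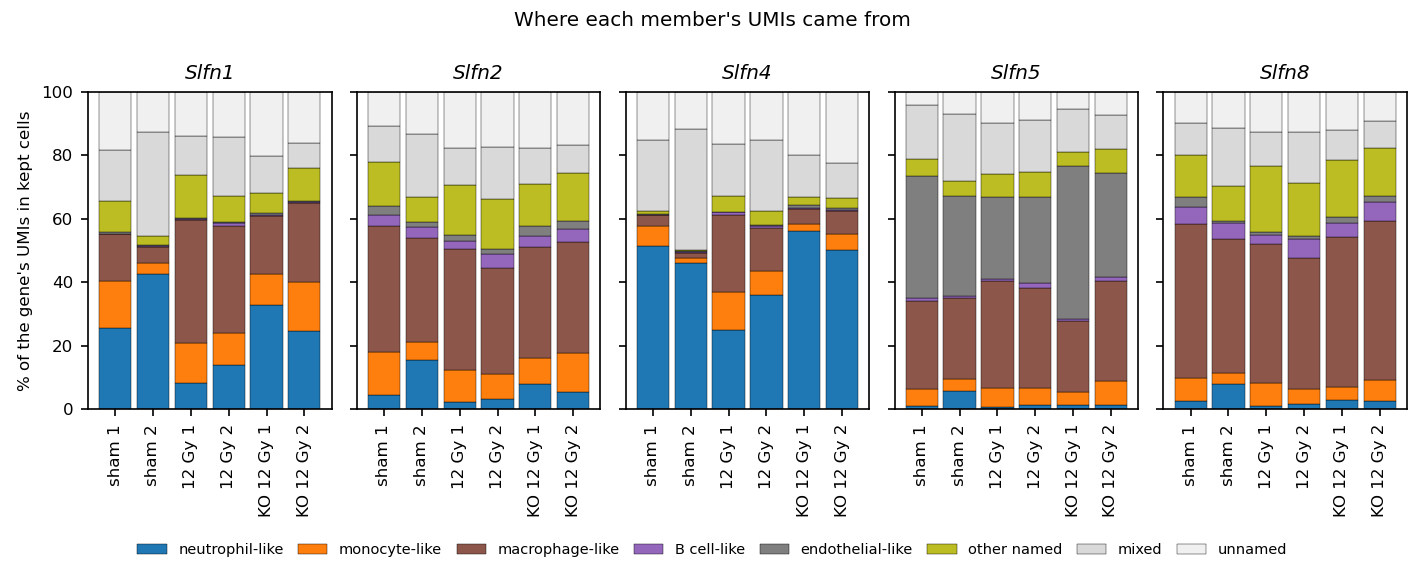
Share of each member's UMIs, in percent of those in all kept cells, that came from each class in each of the 6 libraries. Neutrophil-like cells give 25.0% to 56.3% of Slfn4, endothelial-like cells give 25.8% to 48.2% of Slfn5, and the macrophage-like part of Slfn1 runs from 4.94% to 14.7% in sham and from 33.6% to 38.9% in irradiated wild type.

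Summed over all kept cells, 0 of 5 members were called by edgeR in any of the 3 comparisons. Called means a Benjamini-Hochberg adjusted p under 0.05 over all genes tested, from edgeR's quasi-likelihood F test on counts summed per library. In these fits few genes were called at all: 0.0127% of 15765 for radiation (irradiated against sham wild type), 0.0254% for genotype (labelled knockout against wild type, both irradiated) and 0.0634% for the irradiated knockout label against sham. Counts of members at an unadjusted p under 0.05, here and below, stand without the share of all genes at that limit. They are not read as results. At an unadjusted p under 0.05 there was 1 member in each comparison, and DESeq2 called 1, 1 and 0, beside 7.31%, 1.61% and 5.55% of genes that it called in the same sums. The member that DESeq2 called was Slfn8 in both, at a log2 fold change of 0.52 ± 0.13 for radiation (edgeR adjusted p = 0.113) and -0.59 ± 0.13 for genotype (edgeR adjusted p = 0.28). Slfn4 had a log2 fold change of -0.75 ± 0.57 for radiation over all cells (edgeR adjusted p = 0.459), opposite in sign to its value in macrophage-like cells given below. It was at 12.6 and 47.3 CPM in sham replicates 1 and 2 and at 19.7 and 16.4 in irradiated wild type. The groups thus overlapped, and the sign rested on sham replicate 2. Neutrophil-like cells made up 7.92% and 17.7% of the sham cells and 5.60% and 9.20% of the irradiated wild-type cells. In such sums fewer cells of a class and fewer transcripts in each cell cannot be told apart, so the classes were compared next.

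In macrophage-like cells all 5 members rose after irradiation of wild-type hearts, beside 8.37% of 12204 genes called in either direction and 4.67% called higher. Slfn1 was at 7.79 and 8.50 CPM in sham, on 74 and 91 UMIs, and at 49.9 and 43.4 CPM after irradiation, on 428 and 470 UMIs. Both irradiated libraries lay above both sham libraries, and the change was 5.77-fold, a log2 fold change of 2.53 ± 0.24 (SE, edgeR adjusted p = 0.000705). The lower sham share of cells with a Slfn1 UMI lay near the background given below. Slfn4 was at 1.16 and 2.52 CPM in sham, resting on 11 and 27 UMIs, and at 15.1 and 9.15 CPM after irradiation, on 130 and 99 UMIs. Its log2 fold change was 2.69 ± 0.37 (edgeR adjusted p = 0.00394), again with both irradiated libraries higher. The sham level lay at the background given below, so this value is set against background and is not read as a ratio of expressed levels.

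The other 3 members changed less. Slfn2 went from 187 and 253 CPM to 315 and 355, a log2 fold change of 0.62 ± 0.14 (edgeR adjusted p = 0.0263). Slfn5 went from 107 CPM in both sham libraries to 176 and 185, a log2 fold change of 0.77 ± 0.12 (edgeR adjusted p = 0.00619). Slfn8 went from 34.3 and 40.3 CPM to 59.6 and 59.9, a log2 fold change of 0.70 ± 0.12 (edgeR adjusted p = 0.0105). For each of the 5 genes the irradiated and sham libraries did not overlap. The share of all genes that were apart in this way is not given. An exact test of 2 against 2 cannot go below p = 0.333, so such separation is only a description throughout. The median log2 fold change was 0.77 over the 5 members and -0.00 over all genes tested. Slfn1 and Slfn4 were called in each of the 6 fits that left out 1 library, as was Slfn5. In these fits the log2 fold change of Slfn4 ran from 2.24 without sham replicate 1 to 3.40 without sham replicate 2. Slfn2 was called in 3 of the 6, and was lost without sham replicate 1 (0.40, edgeR adjusted p = 0.0818) and without either irradiated wild-type library, while Slfn8 was lost without sham replicate 1 (0.56, edgeR adjusted p = 0.051).

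**Figure D3:**
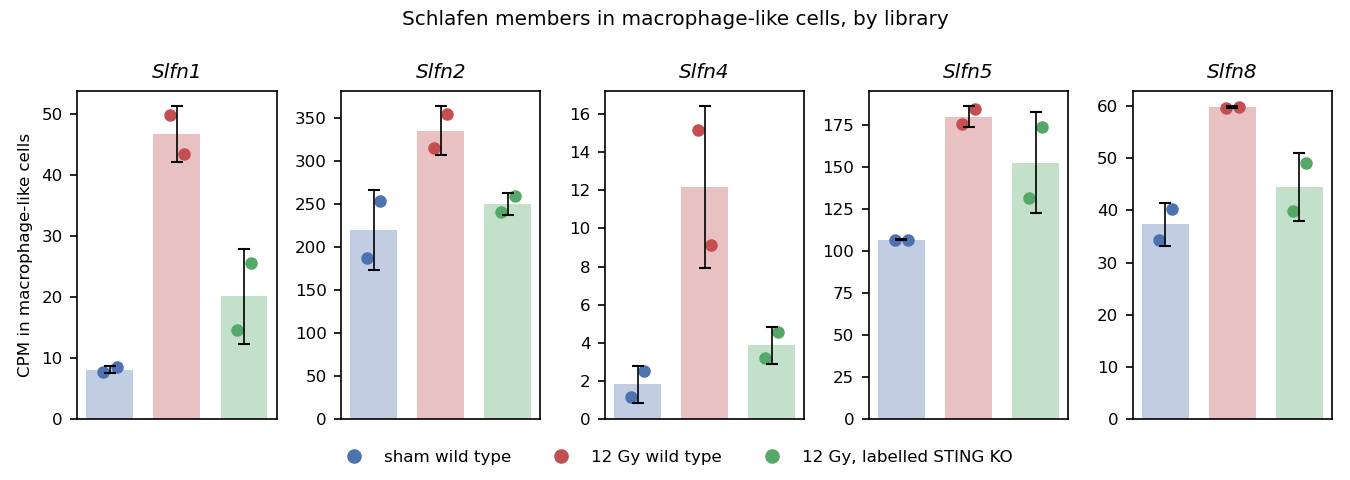
CPM of each member in macrophage-like cells; points are libraries, bars are means of 2 libraries and whiskers are SD. In all 5 panels both irradiated wild-type libraries lie above both sham libraries, and those labelled knockout lie below irradiated wild type. The libraries labelled knockout lie above both sham libraries for Slfn1 (14.7 and 25.6 CPM), Slfn4 and Slfn5 and overlap with sham for Slfn2 and Slfn8. For Slfn5 they are at 132 and 174 CPM, the second near irradiated wild type at 176 and 185.

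The comparison of genotypes after irradiation shares the irradiated wild-type libraries with the comparison above. In macrophage-like cells 3 of 5 members were lower in the libraries labelled STING knockout, beside 4.15% of genes called and 2.62% called lower. Slfn1 was at 14.7 and 25.6 CPM against 49.9 and 43.4, a log2 fold change of -1.34 ± 0.20 (edgeR adjusted p = 0.0118). Slfn4 was at 3.21 and 4.56 CPM against 15.1 and 9.15, -1.75 ± 0.31 on the log2 scale (edgeR adjusted p = 0.0208). Slfn8 was at 39.8 and 49.1 CPM against 59.6 and 59.9, -0.55 ± 0.12 (edgeR adjusted p = 0.0357). Slfn1 was called in each of the 6 fits without 1 library. Slfn4 was called in 3 of these 6 and Slfn8 in 2, and the count of members called fell to 1 without irradiated wild-type replicate 1 and without either library labelled knockout.

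Slfn2 and Slfn5 did not pass for genotype. Slfn2 was at 241 and 259 CPM against 315 and 355, -0.55 ± 0.14 on the log2 scale (edgeR adjusted p = 0.0609), and Slfn5 at 132 and 174 against 176 and 185, -0.37 ± 0.12 (edgeR adjusted p = 0.12). Both genes were lower in both libraries labelled knockout than in either irradiated wild-type library. DESeq2 called 4 of 5 members here, Slfn2 included, beside 3.64% of genes.

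Set against the sham libraries, which the first comparison also used, the irradiated libraries labelled knockout differed in 1 of 5 members, beside 6.52% of genes called and 2.70% called higher. Slfn1 stood at 14.7 and 25.6 CPM against 7.79 and 8.50, a log2 fold change of 1.19 ± 0.24 (edgeR adjusted p = 0.0215). It was not called without either sham library or without the second library labelled knockout, where the value was 0.75. Slfn4 (0.94 ± 0.41), Slfn5 (0.41 ± 0.12), Slfn8 (0.14 ± 0.12) and Slfn2 (0.07 ± 0.14) did not pass.

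Markers of other cells were measured in the same class. The summed level of 9 monocyte markers in macrophage-like cells was 94.8 to 115 CPM in sham, 374 to 450 in irradiated wild type and 458 to 557 in the libraries labelled knockout, with 0 of the 9 markers at 0. It thus moved with radiation and was highest in those labelled knockout. Its part in the result was not tested. The 9 neutrophil markers summed to 270 and 323 CPM in sham, 102 and 184 in irradiated wild type and 232 and 234 in those labelled knockout, lowest in irradiated wild type. Their part in the result was not tested. Median depth per macrophage-like cell was 4879 and 5191 UMIs in sham, 6799 and 5753 in irradiated wild type and 8423 and 7931 in those labelled knockout.

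The share of cells with a UMI was compared after each cell had been thinned to 2000 UMIs, which left out 52 to 151 macrophage-like cells of a library. Slfn1 was found in 0.835% and 1.88% of sham macrophage-like cells, 7.72% and 7.47% of irradiated wild-type cells and 2.58% and 4.45% of those labelled knockout. Without thinning it was found in 134 of 3669, 549 of 2924 and 385 of 3447 cells, and at most 9 UMIs fell in 1 cell. In B cell-like cells, used as the background for free RNA, the thinned share ran from 0 of 241 cells to 0.758%, at median depths of 2077 to 4176 UMIs. The value of 0 of 241 allows a share of up to 1.24% (1-sided 95% limit). The lower sham share of Slfn1, 0.835%, lay above 0.758% but under that limit, so it is not clearly apart from background. The sham share of Slfn4, 0.239% (95% Clopper-Pearson interval 0.0650% to 0.610%) and 0.387% (0.156% to 0.796%), was within the B cell-like background, whose highest value was 0.505%, and is read as background. In irradiated wild type the share of Slfn4 was 2.36% and 1.17%, and in those labelled knockout 0.307%, again within that background, and 0.975%. The genotype value of Slfn4 is in part set against background too. These intervals cover counting error only.

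For the other members the thinned shares of macrophage-like cells were larger. Slfn2 was found in 26.2% and 35.4% of sham cells, 43.3% and 42.8% of irradiated wild-type cells and 33.3% and 34.3% of those labelled knockout. Slfn5 was found in 16.8% and 15.3%, 25.9% and 23.9%, and 19.2% and 23.7% of cells in the same order. Slfn8 was found in 7.69% and 7.08%, 12.3% and 10.1%, and 6.94% and 9.75%. In each of the 3 genes the irradiated wild-type libraries were above the sham libraries.

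Interferon-stimulated genes moved in the same direction as the members. Of a list of 40, 38 were tested in macrophage-like cells and 36 rose after irradiation, with a list median of 1.18 on the log2 scale beside -0.00 over all genes, and 27 were lower in the libraries labelled knockout, with a median of -0.84. The largest changes after irradiation were in Ifi44 (4.12 ± 0.56), Ifit1bl1 (3.03 ± 0.36), Ms4a4c (2.85 ± 0.21), the oligoadenylate synthetase gene Oas3 (2.41 ± 0.23) and Irf7 (2.40 ± 0.21), a transcription factor of the interferon response. Slfn1 and Slfn4 lay within this range, and Slfn2, Slfn5 and Slfn8 lay under the list median. The smallest changes were those of the kinase gene Eif2ak2 (0.50 ± 0.11), Oas2 (0.27 ± 0.09) and Irf9 (0.22 ± 0.09), the last 2 not called. Of 12 genes of monocyte-derived macrophages 6 rose and 0 fell after irradiation, and of 12 genes of resident macrophages 0 rose and 8 fell.

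The macrophage-like class included 1 cluster, of 639 cells, that was led by Ifit3 and Ifit2. Over the 6 libraries its cells held 153 CPM of Slfn1, 503 of Slfn2, 31.4 of Slfn4, 572 of Slfn5 and 155 of Slfn8, in each case more than in the other 3 macrophage-like clusters. It held 27 and 32 cells of the sham libraries, 189 and 202 of irradiated wild type and 53 and 136 of those labelled knockout. Since the genes that define it differ between the groups, these numbers are given only to show what was removed in the next step.

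Without that cluster, an alternative chosen after seeing the data, 2 of 5 members were called after irradiation, beside 6.17% of genes. Slfn1 was at 5.99 and 6.94 CPM in sham and 28.4 and 21.8 in irradiated wild type, a log2 fold change of 1.96 ± 0.21 (edgeR adjusted p = 0.000963). Slfn4 was at 1.07 and 2.47 CPM and at 8.87 and 6.21, 2.05 ± 0.37 (edgeR adjusted p = 0.0113). Slfn5 fell short at 0.35 ± 0.09 (edgeR adjusted p = 0.0601), Slfn8 at 0.30 ± 0.10 (edgeR adjusted p = 0.122) and Slfn2 at 0.50 ± 0.15 (edgeR adjusted p = 0.0763). For genotype, beside 3.82% of genes called, Slfn1 (-1.05 ± 0.18, edgeR adjusted p = 0.0149) and Slfn4 (-1.70 ± 0.33, edgeR adjusted p = 0.0215) were called and Slfn8 (-0.33 ± 0.10, edgeR adjusted p = 0.107) was not. The log2 fold changes of Slfn5 and Slfn8 for radiation were thus 0.35 and 0.30 without the cluster against 0.77 and 0.70 with it.

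Macrophage-like cells were also clustered again without the Schlafen genes and without the interferon-stimulated list, but an interferon-type sub-cluster formed all the same. It had 294 cells and was led by Cxcl9, Ifi205 and Gbp4, genes outside that list that interferons also induce, and it held 10 and 13 cells of sham, 100 and 75 of irradiated wild type and 18 and 78 of those labelled knockout. Slfn1 stood in it at 190 and 156 CPM in sham, 182 and 211 in irradiated wild type and 195 and 166 in those labelled knockout, so the groups overlapped. Slfn5 and Slfn8 also overlapped there between sham and irradiated wild type. Slfn2 (425 and 454 against 539 and 663 CPM) and Slfn4 (0 in both against 66.3 and 44.1) did not. With under 20 cells in 3 libraries this sub-cluster was not tested, and since the genes that define it differ between groups its cell numbers are no result. Of 5 sub-clusters tested, the first (2724 cells, led by Ramp1 and Tmem119) and the second (2618 cells, led by Tnip3, Dusp2 and Il1b) were the largest. The third (1618 cells) was led by Cd209g and Cd209f and the last (1586 cells) by Serpinb1a, Ccl8 and Lyve1. After irradiation Slfn1 was called higher in these 4. In the first sub-cluster 2 of 5 members were called (beside 4.36% of genes), in the second 4 of 5 (5.07%), in the third 1 of 4 tested (1.38%) and in the last 2 of 4 tested (2.14%).

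Slfn1 stood in the first sub-cluster at 3.76 and 10.1 CPM in sham and 35.5 and 38.0 in irradiated wild type (2.37 ± 0.31 on the log2 scale, edgeR adjusted p = 0.000444). In the second it went from 4.53 and 5.27 to 32.7 and 29.5 CPM (2.64 ± 0.26, edgeR adjusted p = 6.42e-06). In the third it went from 7.09 and 5.93 to 22.1 and 21.4 CPM (1.74 ± 0.28, edgeR adjusted p = 0.00394), and in the last from 12.5 and 12.4 to 47.3 and 45.7 CPM (1.91 ± 0.28, edgeR adjusted p = 0.000925). Slfn1 was thus called both where Lyve1 was among the leading genes and where Il1b was. Differences between sub-clusters were not tested. Slfn2 was called in the second (0.74 ± 0.10) and last (0.54 ± 0.11), Slfn5 in the first (0.63 ± 0.13) and second (0.67 ± 0.11), and Slfn4 in the second (2.91 ± 0.54). Slfn8 was called in 0 of the 4.

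For genotype, Slfn1 was lower in the first (-1.32 ± 0.25), second (-1.65 ± 0.20) and last sub-cluster (-1.27 ± 0.20) and did not pass in the third (-0.68 ± 0.27, edgeR adjusted p = 0.386). Slfn4 was lower in the first (-2.24 ± 0.54, edgeR adjusted p = 0.048), where each library labelled knockout held 7 UMIs. Slfn2 was lower in the second (-0.46 ± 0.10) and last (-0.41 ± 0.10). The shares of genes called were 1.62%, 3.64%, 0.779% and 2.49% in the 4 sub-clusters. The smallest tested sub-cluster, of 352 cells, led by Cd79a and S100a8, genes of B cells and neutrophils, had 0 of 3 tested members called in both comparisons (0.301% and 0.782% of genes), with 3 and 2 at an unadjusted p under 0.05.

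**Figure D4:**
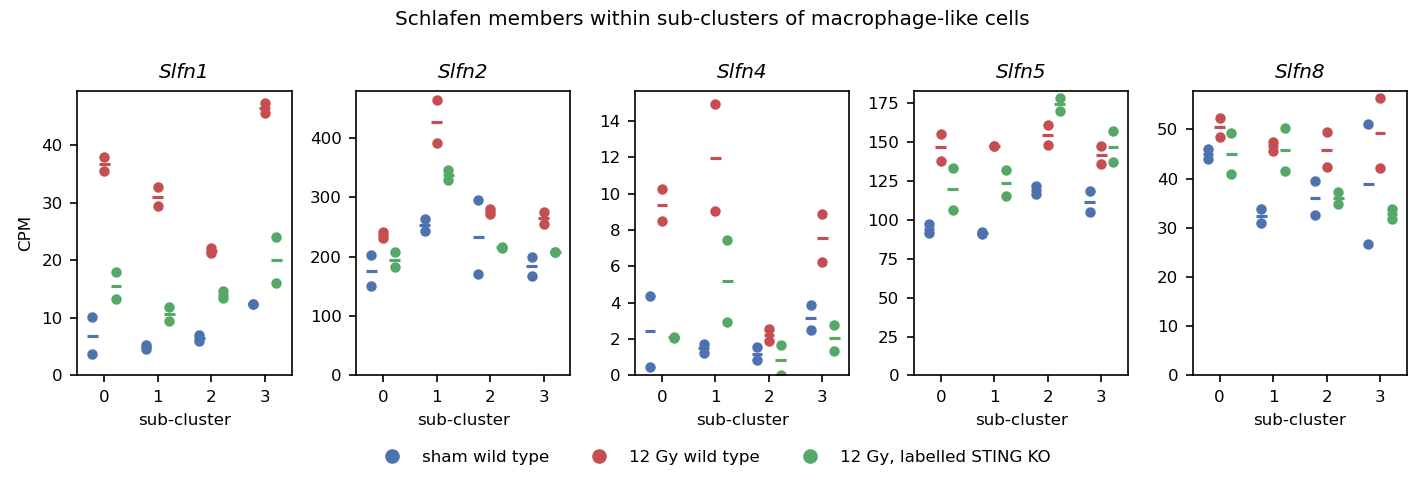
CPM of each member in 4 sub-clusters of macrophage-like cells (0 to 3 are the first to last in the text), formed without Schlafen and interferon-stimulated genes; points are libraries and lines are means of 2. Slfn1 in irradiated wild type lies above sham in all 4 sub-clusters, whereas Slfn8 overlaps between these groups in sub-cluster 3.

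In monocyte-like cells 0 of 5 members were called by edgeR after irradiation (0.103% of 8747 genes called), with 2 at an unadjusted p under 0.05 and 0 of the 3 called to which DESeq2 gave an adjusted p. Slfn1 was at 52.0 and 57.6 CPM in sham and 73.8 and 79.8 in irradiated wild type, 0.49 ± 0.18 on the log2 scale (edgeR adjusted p = 0.59). Slfn4 was at 13.2 and 20.1 CPM and at 33.5 and 30.6, 0.97 ± 0.28 (edgeR adjusted p = 0.362). The groups did not overlap for either gene.

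For genotype 1 of 5 members, Slfn4, was lower in monocyte-like cells labelled knockout, beside 0.937% of genes called and 0.732% called lower. It was at 9.96 and 13.7 CPM, on 22 and 47 UMIs, against 33.5 and 30.6 CPM, on 63 and 54 UMIs, a log2 fold change of -1.48 ± 0.25 (edgeR adjusted p = 0.0103). Slfn8 was at 22.6 and 28.5 CPM against 44.1 and 41.3, -0.80 ± 0.19 (edgeR adjusted p = 0.0755). The call of Slfn4 was lost without the first library labelled knockout (-1.31, edgeR adjusted p = 0.0937), and with a mitochondrial limit of 5% the value was 0.31 (edgeR adjusted p = 0.895), on 13 and 14 UMIs in irradiated wild type and 36 and 21 in those labelled knockout. The class joins 2 clusters, one led by Chil3 and Ly6c2 with 23.4 CPM of Slfn4 and one led by Cd300e and Treml4 with 7.11 CPM. The second held 164 and 99 of the 320 and 357 monocyte-like cells of irradiated wild type and 117 and 167 of the 310 and 484 labelled knockout.

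In neutrophil-like cells, where Slfn1 and Slfn4 were highest, 0 of 5 members were called in either comparison (0% of 6531 genes for radiation and 0.199% for genotype), with 0 and 2 at an unadjusted p under 0.05 and 0 called by DESeq2. Slfn1 was at 169 and 218 CPM in sham, 229 and 192 in irradiated wild type and 168 and 205 in those labelled knockout, so all 3 groups overlapped. Slfn4 was at 208 and 215, 341 and 252, and 241 and 254 CPM in that order (0.43 ± 0.20 for radiation, edgeR adjusted p = 0.763). Slfn5 was at 89.0 and 89.3 CPM in irradiated wild type and 50.6 and 57.7 in those labelled knockout (-0.69 ± 0.21, edgeR adjusted p = 0.435). For 4 of the 5 members, all but Slfn1, both irradiated wild-type libraries lay above both sham libraries. For 3 of the 5 both libraries labelled knockout lay below both of irradiated wild type.

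The difference between classes was tested directly, as a class by group term with library as a block, for macrophage-like cells against 4 other classes. In these fits the spread was drawn largely from all genes together, and against neutrophil-like cells almost wholly. The very small p-values there thus do not measure a gene's own spread between libraries. For radiation the log2 fold change of Slfn1 was larger in macrophage-like than in monocyte-like cells by 2.02 ± 0.23 (edgeR adjusted p = 9.19e-05, beside 0.773% of genes called) and than in neutrophil-like cells by 2.49 ± 0.25 (edgeR adjusted p = 3.33e-20, beside 1.25%). That of Slfn4 was larger than in monocyte-like cells by 1.75 ± 0.40 (edgeR adjusted p = 0.0465) and than in neutrophil-like cells by 2.27 ± 0.30 (edgeR adjusted p = 7.89e-11). Slfn4 lay at background in sham macrophage-like cells, so these differences are not read as ratios of expressed levels. The same holds in part for its genotype difference below. Mean CPM of Slfn4 in sham and irradiated wild type was 1.84 and 12.1 in macrophage-like and 16.6 and 32.0 in monocyte-like cells. In neutrophil-like cells it was 212 and 296. Against B cell-like cells 0 members differed (1.10% of genes), with Slfn2, Slfn4, Slfn5 and Slfn8 at an unadjusted p under 0.05. Against endothelial-like cells (1.47%) the difference was called for Slfn5, at 1.06 ± 0.13 (edgeR adjusted p = 0.00246), and for Slfn1. For genotype the differences called were those of Slfn1 (-1.30 ± 0.23) and Slfn4 (-1.58 ± 0.26) against neutrophil-like cells, beside 0.723% of genes, and 0 against monocyte-like (0.0252%), B cell-like (0.324%) and endothelial-like cells (0%), with 3, 2 and 2 members in that order at an unadjusted p under 0.05.

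**Figure D5:**
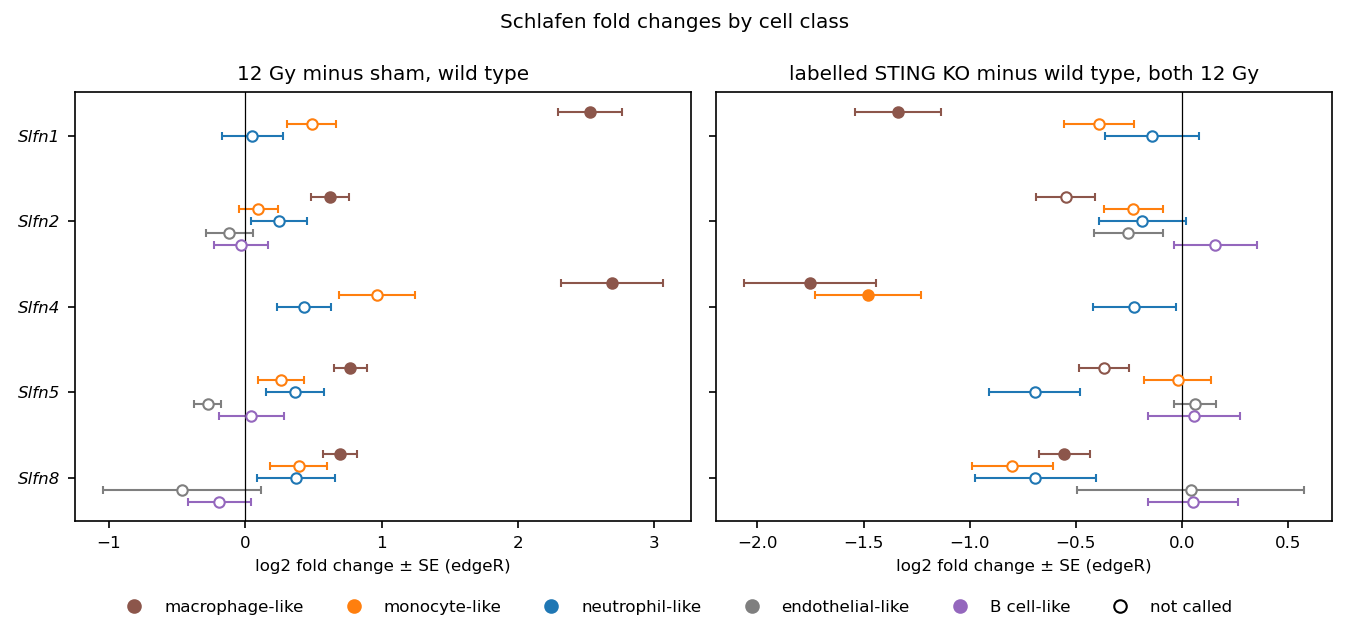
log2 fold changes ± SE from edgeR for each member in 5 classes, for radiation (left) and genotype (right); filled points were called, open points were not, and a missing point did not pass the filter on low counts. For radiation the filled points are all macrophage-like; for genotype they are Slfn1, Slfn4 and Slfn8 in macrophage-like and Slfn4 in monocyte-like cells.

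In endothelial-like cells 3 members passed the filter on low counts, and 0 were called in either comparison (5.66% and 0.0649% of genes), with 1 and 0 at an unadjusted p under 0.05. Slfn5 was lower in irradiated wild type (606 and 669 CPM) than in sham (794 and 773), -0.27 ± 0.10 on the log2 scale (edgeR adjusted p = 0.144). DESeq2 called 0 of the 2 and 0 of the 1 to which it gave an adjusted p. In B cell-like cells 0 of 3 tested members were called by edgeR in either comparison (0.0332% and 0.265% of genes), and DESeq2, which gave an adjusted p to 1, called 0, with 0 at an unadjusted p under 0.05. Cycling cells, which mix lineages, had 0 of 5 called (0.293% and 0.137%), with 4 at an unadjusted p under 0.05 for radiation and 2 for genotype. Slfn5 went there from 12.7 and 9.87 CPM in sham to 26.3 and 52.2 in irradiated wild type (1.96 ± 0.46, edgeR adjusted p = 0.116). In T cell-like, NK cell-like, dendritic cell-like and fibroblast-like cells, which had 122 or more, 135 or more, 61 or more and 35 or more cells in each library, 0 of 4, 2, 4 and 3 tested members were called for radiation (0%, 0.0494%, 0.0121% and 0.0121% of genes), with 0, 0, 1 and 2 at an unadjusted p under 0.05. For genotype these classes also had 0 called (0.0683%, 1.22%, 0.0971% and 0.169% of genes), with 0, 0, 1 and 0 at an unadjusted p under 0.05. DESeq2 was not run in these classes or in cycling cells.

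The likeness of expression patterns was described over 60 sums, 10 classes in 6 libraries, as Pearson's r of log2(CPM + 1) with 8582 genes; sums of 1 library share its depth, and no p is given. The genes closest to Slfn1 were Oas3 (0.86), the Fc receptor gene Fcgr4 (0.82) and Lst1 (0.82). Those closest to Slfn4 were genes of neutrophils, the formyl peptide receptor gene Fpr1 (0.92), Clec4d (0.91) and the G-CSF receptor gene Csf3r (0.90). Slfn2 was closest to Nrros (0.89), Ucp2 (0.89) and Samhd1 (0.88), Slfn5 to Anxa3 (0.81), Reep3 (0.79) and Arpc1a (0.79), and Slfn8 to Cd84 (0.78), Plcl2 (0.76) and Runx1 (0.75). Within the family, Slfn1 was closest to Slfn4 and Slfn2 (both 0.74), and Slfn5 and Slfn8 had an r of -0.49.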

How the data were processed

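Values in the deposited files are whole-number UMI counts for each gene and barcode, not normalized, per the file headers, from 10x 3' version 3 libraries. Cell Ranger 5.0.0, Seurat 3 and the mm10 build are named in the submitters' processing notes. Cells with at least 200 genes and at most 10% mitochondrial UMIs were kept, and the cells with the highest scrublet scores were removed as doublets (0.8% per 1000 cells), since the automatic threshold marked 0 or 1 barcodes in a library. Cells were clustered in scanpy 1.11.5 (2000 variable genes leaving out Schlafen, antigen-receptor, ribosomal, sex-linked and mitochondrial genes, 30 components, 15 neighbours, resolution 1). A cluster was named from at least 3 detected markers and set aside as mixed when a second lineage's markers reached 0.5 of their highest detection. Cardiomyocyte markers were left out of that rule after the clusters had been seen. A mural-like class could not be formed, and its planned background share was replaced by that of B cell-like cells. For classes holding 20 or more cells in all libraries, counts were summed by library and fitted over 6 libraries with edgeR 4.0.16 (R 4.3.3, TMM, its own filter, 3 residual degrees of freedom). The scripts were tested on simulated data. DESeq2 1.42.0, other filters, limits and left-out libraries were alternatives. An exact test of 2 against 2 cannot go below p = 0.333. The members and gene lists were chosen with earlier results of these data known. Named genes were the 5 members, other Schlafen genes, the 5 largest and 3 smallest changes of the interferon-stimulated list, and the 3 genes most alike to each member.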

Additional observations from a re-analysis of the deposited data

Results flagged for a closer look

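The following differences of an effect between classes passed their own test, with edgeR's adjusted p over all genes; each is the log2 fold change in macrophage-like cells minus that in the other class. For radiation they were 2.02 (adjusted p = 9.19e-05) for Slfn1 and 1.75 (adjusted p = 0.0465) for Slfn4 against monocyte-like cells. Against neutrophil-like cells they were 2.49 (adjusted p = 3.33e-20) for Slfn1 and 2.27 (adjusted p = 7.89e-11) for Slfn4. Against endothelial-like cells they were 1.06 (adjusted p = 0.00246) for Slfn5 and 3.65 (adjusted p = 0.026) for Slfn1, the last resting on 25 endothelial-like UMIs in all 6 libraries. For genotype they were -1.30 (adjusted p = 1e-05) for Slfn1 and -1.58 (adjusted p = 1.34e-06) for Slfn4 against neutrophil-like cells. The fit against neutrophil-like cells drew the spread almost wholly from all genes together, so its p-values do not measure a gene's own spread between libraries. Slfn4 lay at background in sham macrophage-like cells and in part in those labelled knockout. Its differences are therefore not read as ratios of expressed levels.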

How the results depend on the processing

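Of 205 recomputed counts of members called, 182 stayed within 1.5 times their value or on their side of 0. In all cells the radiation count of 0 became 1 without a filter on low counts (4.60% of genes called), with DESeq2 and, for Slfn4, without sham replicate 1, and the genotype count became 1 with DESeq2. In macrophage-like cells the radiation count of 5 was 2 at a mitochondrial limit of 5%, which left 289 to 599 of these cells in a library and called 0.932% of genes, with Slfn2 at 0.52, Slfn5 at 0.72 and Slfn8 at 0.74 on the log2 scale, and 2 without the interferon-led cluster; leaving out 1 library gave 3 to 5. The genotype count of 3 was 5 without a filter (5.76% of genes) and 1 at 5% (0.228%), where Slfn1 stood at -0.95 (edgeR adjusted p = 0.0905), with 1 to 4 when 1 library was left out. The count against sham, 1, was 3 without a filter (7.63%), 0 at 5% (1.56%) and 0 to 2 with 1 library left out. In monocyte-like cells the genotype count of 1 was 2 without a filter (1.62%), 0 at 5% (0.285%) and 0 to 2 with 1 library left out; Slfn4 stood there at 0.31 at 5%, and its call was lost with doublets kept and with Schlafen genes among the clustering genes. DESeq2 gave no adjusted p for Slfn4 and Slfn8 there. In neutrophil-like cells the genotype count became 1 at 5% (0.314%). Where no cause is given, the cause was not tested. Same-numbered libraries showed little shared deviation over genes (r between -0.07 and 0.17), so no pairing by number was seen. With 1 difference a group the check cannot exclude a weak pairing. With the replicate block, macrophage-like counts were 5, 4 and 1, Slfn2 being called for genotype (-0.54, edgeR adjusted p = 0.0265). B cell-like cells at 5% could not be fitted. Few UMIs of Slfn4 and the 2 libraries of each group limit the precision.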

Other observations

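Of the other Schlafen genes, Slfn9, a long member next to Slfn8, held 2502 UMIs and was called higher after irradiation in macrophage-like cells. It went from 6.42 and 5.51 CPM in sham to 15.6 and 14.0 in irradiated wild type (1.33 ± 0.25 on the log2 scale, edgeR adjusted p = 0.0137). In the libraries labelled knockout it was at 9.94 and 16.8 CPM, which overlapped with irradiated wild type (-0.27 ± 0.21, edgeR adjusted p = 0.495) and was above sham (1.06 ± 0.24, edgeR adjusted p = 0.0343). In endothelial-like cells Slfn9 was at 9.63 and 5.96 CPM in sham, 12.0 in both irradiated wild-type libraries and 19.0 and 25.9 in those labelled knockout (1.45 ± 0.30 against sham, edgeR adjusted p = 0.0248). Slfn3, of intermediate size like Slfn4, held 280 UMIs, 121 of them in endothelial-like cells. The antisense gene Slfn5os held 65 UMIs, 56 of them in endothelial-like cells, where Slfn5 was highest. Slfn14 held 7 UMIs and Slfnl1 6.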
